A study of Mus musculus with 8 samples.

Results

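The genes described here are 10 imprinted growth genes in mouse lung myofibroblasts, namely H19, Dlk1, Meg3, Mest, Peg3, Cdkn1c, Grb10, Plagl1, Ndn and Peg10. They were chosen by name and found by their mouse Ensembl identifiers, 10 of the 43432 genes in the count table, and all 10 had enough counts to be tested. The study sequenced mRNA from 8 libraries of C57BL/6 mice at postnatal day 7. Of these, 4 were labelled as carrying a transgene that expresses Fra-2 constitutively (Fra-2 1 to Fra-2 4) and 4 as wild type (control 1 to control 4). The labels name no promoter for the transgene, no other allele or agent in either group, and no way in which the cells were sorted. The source label of the transgenic libraries also holds the word control, so it goes against their genotype label and title, from which the groups were taken. The labels do not say whether each library came from a separate animal, so p-values measure the spread between these libraries, which may be technical.

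An imprinted gene is expressed mainly from the copy inherited from a single parent. DNA methylation laid down in the egg or the sperm marks the parental copies differently. Many imprinted genes set the growth of the fetus and the young animal, and in mice a set of them is known to be highly expressed around birth and to decline together as organs stop growing. Dlk1, Mest, Peg3, Plagl1, Ndn and Peg10 are expressed mainly from the paternal copy, and H19, Meg3, Cdkn1c and, in most mouse tissues outside the brain, Grb10 from the maternal copy. Counts per gene do not separate the parental copies, so the values below are totals of both.

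The members lie on 5 autosomes (mouse build GRCm38). On chromosome 7, H19 (ENSMUSG00000000031, chr7:142575529-142578143, minus strand) and Cdkn1c (ENSMUSG00000037664, chr7:143458339-143461050, minus strand) share the distal imprinted domain, while Peg3 (ENSMUSG00000002265, chr7:6703892-6730431, minus strand) and Ndn (ENSMUSG00000033585, chr7:62346569-62350262, plus strand) lie in domains of their own. On chromosome 12, Dlk1 (ENSMUSG00000040856, chr12:109452823-109463336, plus strand) lies upstream of Meg3 (ENSMUSG00000021268, chr12:109541001-109571726, plus strand). Chromosome 6 holds Peg10 (ENSMUSG00000092035, chr6:4747306-4760517, plus strand) and Mest (ENSMUSG00000051855, chr6:30723547-30748465, plus strand). Chromosome 11 holds Grb10 (ENSMUSG00000020176, chr11:11930508-12038683, minus strand), and chromosome 10 holds Plagl1 (ENSMUSG00000019817, chr10:13060504-13131694, plus strand). H19 and Meg3 are annotated as long noncoding RNAs and the other 8 as protein-coding genes.

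Total counts ran from 29926239 to 38954848 in the labelled Fra-2 libraries and from 31986025 to 41335957 in the controls. Fosl2, which encodes Fra-2, measured 166, 134, 126 and 104 CPM (the usual scaling of counts to library size, with TMM factors) in the labelled Fra-2 libraries, against 105, 117, 141 and 119 CPM in the controls. These ranges overlapped, with a log2 fold change of 0.14 (SE 0.136, adjusted p = 0.888 by edgeR) and a two-sided exact permutation p of 0.457, where 0.0286 is the smallest that 4 against 4 allows. Groups are therefore called by their labels throughout. The summed level of 10 myofibroblast markers was 16812 to 19539 CPM in the labelled Fra-2 libraries and 17137 to 19092 CPM in the controls, with Myh11 the most abundant in the labelled Fra-2 libraries and Tgfbi in the controls. Summed markers of other cell types in the labelled Fra-2 libraries were 67.4 to 82.6 CPM for endothelium, 114 to 222 CPM for epithelium, 87.7 to 116 CPM for leukocytes, 7.13 to 13.7 CPM for mesothelium and 15.7 to 67.2 CPM for erythroid cells. In the controls they were 48.2 to 68.2, 56.6 to 136, 75.7 to 111, 3.76 to 9.54 and 15.2 to 123 CPM for the same lists. Summed matrix and lipid-type fibroblast markers, most of them Npnt, were 254 to 319 CPM in the labelled Fra-2 libraries and 133 to 235 CPM in the controls, and those of adventitial fibroblasts 1382 to 1653 CPM in the labelled Fra-2 libraries and 1205 to 1478 CPM in the controls. Summed pericyte markers were 1648 to 1971 CPM in the labelled Fra-2 libraries and 1904 to 2326 CPM in the controls. No listed marker was at 0 in all 8 libraries, and the mesothelial marker Wt1 was at 0 in some.

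Sequences that the members carry are given first. H19, Meg3 and Mest each contain miRNA hairpins on their own strand, and miR-675 is cut from the H19 transcript itself. The mature forms are shown because these host RNAs are known to give rise to them. Poly-A selected libraries do not measure mature miRNAs. The sequences are from RefSeq (GRCm38.p6), 5′ to 3′, with the seed (bases 2 to 8) in capitals.
miR-675-5p, in H19, chr7:142577112-142577133, minus strand: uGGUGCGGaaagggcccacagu
miR-675-3p, in H19, chr7:142577078-142577099, minus strand: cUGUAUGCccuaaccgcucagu
miR-1906, in Meg3, chr12:109544588-109544609, plus strand: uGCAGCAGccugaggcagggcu
miR-770-5p, in Meg3, chr12:109563710-109563731, plus strand: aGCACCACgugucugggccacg
miR-770-3p, in Meg3, chr12:109563744-109563765, plus strand: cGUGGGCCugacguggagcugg
miR-335-5p, in Mest, chr6:30741314-30741336, plus strand: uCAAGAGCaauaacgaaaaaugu
miR-335-3p, in Mest, chr6:30741354-30741375, plus strand: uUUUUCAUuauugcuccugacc

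Promoter windows of 300 bases (250 before the start site and 50 after it) were matched for 7 members, with 11 windows in all. Promoters of H19, Cdkn1c and Peg10 were not analysed here. The windows were searched on both strands for TGANTCA, the element that AP-1 factors such as Fra-2 bind, for the related cAMP response element TGACGTCA, and for GGGGCCCC, a core that the Plagl1 protein is known to bind. The TGACGTCA search was added after the sequences were seen. TGANTCA was in 0 of the 11 member windows, while 7.81% of 32851 mouse promoter windows held it. TGACGTCA was in the Peg3 window and in 1 of 2 Meg3 windows, against 1.79% of all windows. GGGGCCCC was in the Peg3 window, against 1.08% of all windows. No motif searched overlapped another in these windows, and a match in letters is not a measured binding site. The Peg3 window (chr7:6730370-6730669, minus strand) and the Meg3 window (chr12:109540746-109541045, plus strand) are shown with these motifs in capitals.
Peg3: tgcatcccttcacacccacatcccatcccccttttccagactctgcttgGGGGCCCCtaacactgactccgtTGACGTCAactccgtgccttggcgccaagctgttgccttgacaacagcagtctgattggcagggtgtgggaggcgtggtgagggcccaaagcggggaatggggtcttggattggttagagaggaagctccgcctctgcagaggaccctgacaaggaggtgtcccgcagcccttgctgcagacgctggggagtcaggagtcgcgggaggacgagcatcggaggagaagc
Meg3: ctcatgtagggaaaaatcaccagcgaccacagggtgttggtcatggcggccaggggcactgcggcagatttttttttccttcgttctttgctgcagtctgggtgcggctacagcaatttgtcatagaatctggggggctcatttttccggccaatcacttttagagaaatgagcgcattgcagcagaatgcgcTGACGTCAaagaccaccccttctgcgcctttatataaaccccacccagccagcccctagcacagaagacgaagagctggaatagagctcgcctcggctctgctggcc

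CpG dinucleotides, the substrate of DNA methylation, differed widely in number between member promoters. The windows surround start sites and were not matched to the regions that carry imprinting marks, and methylation was not measured. The upstream Grb10 window (chr11:12037371-12037670, minus strand) held 45 CpG dinucleotides, more than 98.1% of all windows, which had a median of 7. The Plagl1 window held 26, the Mest windows 8, 17 and 17, the Peg3 window 13, the Ndn window 11, the Dlk1 window 9, the Meg3 windows 13 and 1, and the downstream Grb10 window 9. The upstream Grb10 window is shown, with CpGs in capitals, as the densest among the member windows.
Grb10: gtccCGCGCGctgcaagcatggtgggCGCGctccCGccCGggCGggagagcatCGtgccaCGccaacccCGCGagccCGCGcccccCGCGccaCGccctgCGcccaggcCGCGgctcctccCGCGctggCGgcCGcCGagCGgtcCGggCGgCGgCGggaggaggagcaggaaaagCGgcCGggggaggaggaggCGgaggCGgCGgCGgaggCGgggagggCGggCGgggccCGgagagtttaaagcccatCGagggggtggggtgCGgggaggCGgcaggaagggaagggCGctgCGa

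The 10 members differed far more from each other than between groups. Together they took 0.503% to 0.548% of all counts in the labelled Fra-2 libraries and 0.48% to 0.55% in the controls. Grb10 alone made up 50.2% to 56.2% of their summed CPM over the 8 libraries. Per kilobase of exon, Grb10 averaged 308 ± 26.4 CPM (SD, n = 8 libraries), above 99.6% of tested genes. Its lowest library, at 270 CPM per kb, lay above the highest library of any other member.

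Plagl1 at 85.0 ± 10.8 and Peg3 at 79.8 ± 10.2 CPM per kb came next, and their ranges overlapped. H19 at 45.0 ± 11.1, Cdkn1c at 38.1 ± 6.37 and Peg10 at 36.6 ± 15.2 CPM per kb followed with overlapping ranges. The highest Peg10 library, at 69.4 CPM per kb, also lay above the lowest libraries of Peg3 (64.9) and Plagl1 (69.2), and all libraries of H19, Cdkn1c and Peg10 lay above those of Mest. Mest at 19.2 ± 4.74, Ndn at 9.69 ± 1.89 and Meg3 at 7.34 ± 3.30 CPM per kb followed, each overlapping its neighbour in this order. Dlk1 was lowest at 1.23 ± 0.315 CPM per kb, apart from the others, and 33.8% of tested genes were lower. Dlk1 encodes a Notch-related ligand that marks fetal and progenitor mesenchyme, and it rested on 164 to 325 counts per library.

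**Figure D1:**
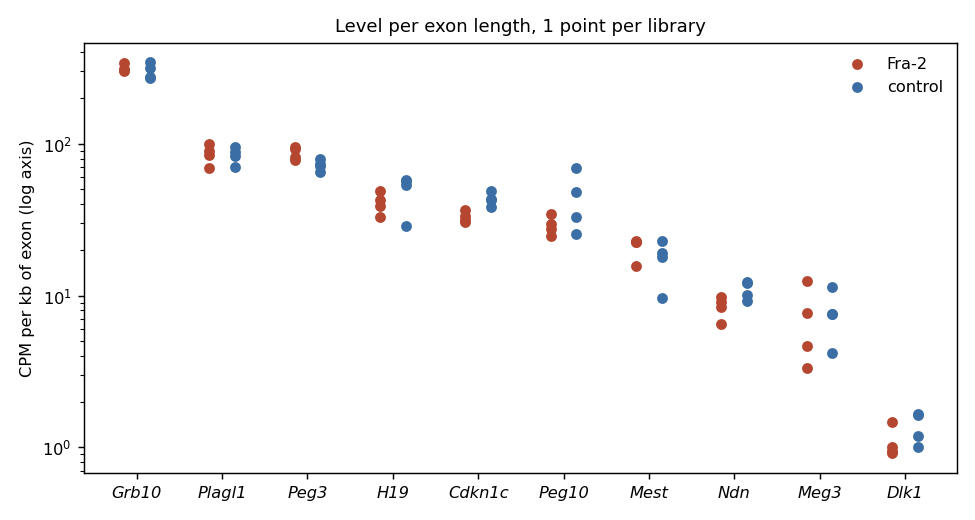
Level of each member in CPM per kilobase of annotated exon (log axis), 1 point per library, with libraries labelled Fra-2 in red on the left and controls in blue. Grb10 stands above the other members at 270 to 345 CPM per kb, and Dlk1 lies lowest at 0.913 to 1.66 CPM per kb.

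None of the 10 members passed the test between groups (edgeR, adjusted p under 0.05). Over all 15422 tested genes, 1.02% passed, 0.72% higher and 0.298% lower in the labelled Fra-2 libraries. Without adjustment, 4 members had p under 0.05, against 8.71% of tested genes. Of these, 1 was higher (Peg3; background 5.17%) and 3 were lower (Cdkn1c, Ndn and Peg10; background 3.53%). DESeq2 called 1 member, Cdkn1c, but it called 369 of the 15422 tested genes, against 157 by edgeR. The median log2 fold change of the 10 was -0.20, beside -0.01 over all tested genes. With 10 genes and mixed signs this describes the members and is not a test of them. In these bulk samples, fewer cells of a type and less RNA per cell cannot be told apart.

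**Figure D2:**
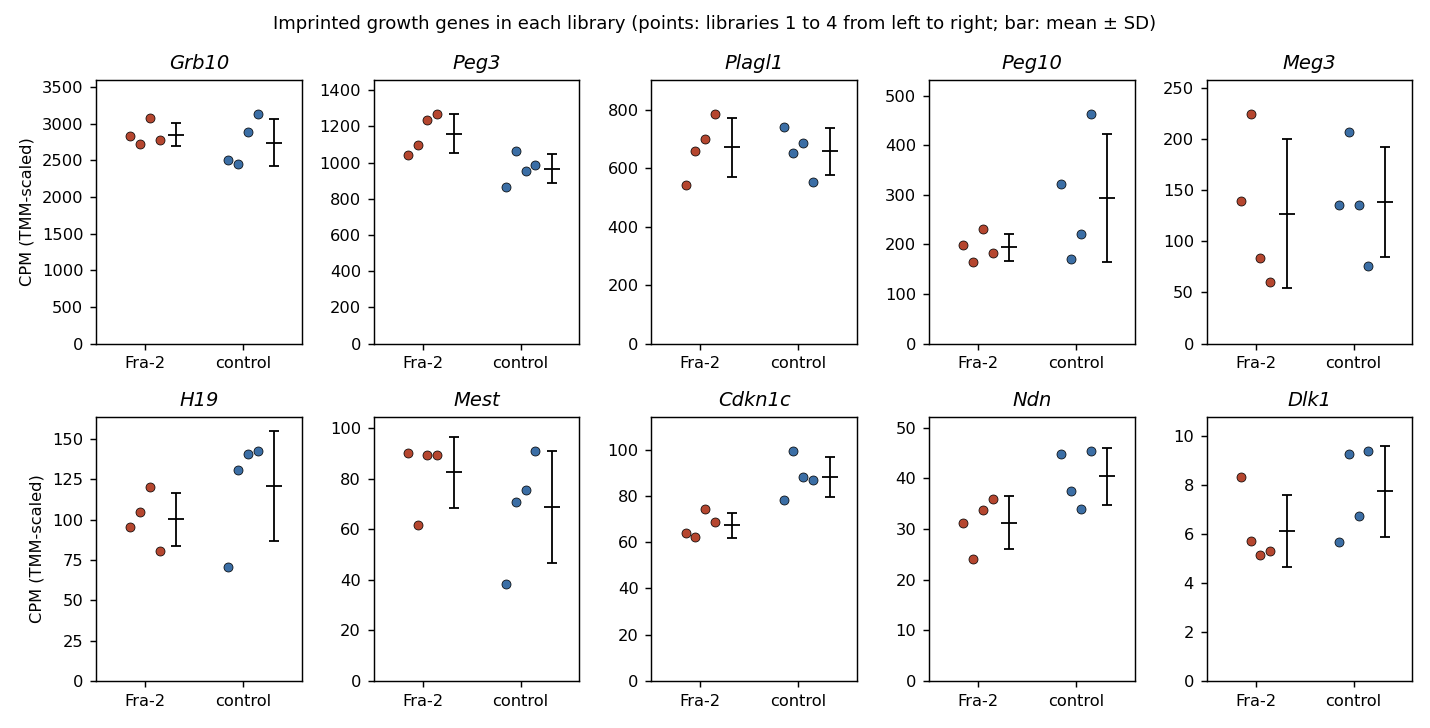
CPM of each member in the 4 libraries labelled Fra-2 (red, left) and the 4 controls (blue, right), libraries 1 to 4 from left to right, with the mean ± SD as a bar beside them. Cdkn1c is the member whose groups do not overlap, at 62.3 to 74.1 CPM in the labelled Fra-2 libraries and 78.2 to 99.2 CPM in the controls.

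Among the growth-restraining members, Cdkn1c had the smallest p. It encodes p57, an inhibitor of cyclin-dependent kinases that restrains cell division. It measured 64.1, 62.3, 74.1 and 68.6 CPM in the labelled Fra-2 libraries, against 78.2, 99.2, 88.3 and 87.0 CPM in the controls. It was the 1 member whose groups did not overlap, beside 5.76% of tested genes in either direction and 2.42% in this one. The log2 fold change was -0.39 (SE 0.105, unadjusted p = 0.0022, adjusted p = 0.125 by edgeR), with a 95% interval of the fold from 0.653 to 0.891. DESeq2 gave an adjusted p of 0.0372 with nearly the same fold change (-0.39). The adjusted p was 0.0947 to 0.414 when each library was left out in turn. Of the 7 pericyte markers, 0 passed, with 3 fold changes above 0, 4 below 0 and a median of -0.09, and the ranges of their sum overlapped, as given above. The most abundant of them, Rgs5, measured 880, 1092, 1189 and 939 CPM in the labelled Fra-2 libraries, against 1303, 1363, 1373 and 1527 CPM in the controls (adjusted p = 0.092 by edgeR). Pdgfrb, the next, went the other way, at 443 ± 20.5 CPM in the labelled Fra-2 libraries and 350 ± 41.6 CPM in the controls (adjusted p = 0.194 by edgeR). The part of pericytes in the Cdkn1c values was not tested.

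The other CDK inhibitor genes did not pass either, 0 of 5 tested in each direction. Cdkn1b, the most abundant of them, averaged 59.5 ± 14.9 CPM in the labelled Fra-2 libraries and 56.0 ± 8.50 CPM in the controls (SD, n = 4 each). Cdkn1a, which encodes p21, averaged 41.4 ± 7.37 CPM in the labelled Fra-2 libraries and 41.6 ± 10.1 CPM in the controls. Of 12 proliferation genes, 0 passed in either direction, with a median log2 fold change of -0.03, and the most abundant, the cyclin gene Ccnd2, averaged 472 ± 27.9 CPM in the labelled Fra-2 libraries and 540 ± 51.2 CPM in the controls.

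Grb10 encodes an adaptor that binds the insulin and IGF-1 receptors and damps their signal. It measured 2836, 2722, 3073 and 2783 CPM in the labelled Fra-2 libraries, against 2506, 2458, 2882 and 3132 CPM in the controls. The control range enclosed the other group, and the log2 fold change was 0.06 (SE 0.102, adjusted p = 0.95 by edgeR). The interval of the fold ran from 0.894 to 1.21. Of 9 genes of insulin and IGF receptor signalling, 1 rose and 0 fell, beside 0.72% and 0.298% of all tested genes. The riser was Igf1, the growth factor gene, at 1878 ± 288 CPM in the labelled Fra-2 libraries and 1178 ± 167 CPM in the controls (adjusted p = 0.0222 by edgeR), a call kept in 2 of 8 fits without 1 library (without Fra-2 2 or without control 4) and lost with the long noncoding share of counts as a covariate (adjusted p = 0.0937 by edgeR). The most abundant of the list, Nedd4, a ubiquitin ligase that binds Grb10, averaged 2644 ± 261 CPM in the labelled Fra-2 libraries and 2534 ± 156 CPM in the controls. The receptor genes Insr and Igf1r did not pass.

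H19, a maternally expressed long noncoding RNA, measured 95.1, 105, 120 and 80.5 CPM in the labelled Fra-2 libraries, against 70.5, 131, 141 and 142 CPM in the controls. Control 1 was the lowest library and the other 3 controls were the highest. The log2 fold change was -0.27 (SE 0.2, adjusted p = 0.815 by edgeR). Without control 1 it was -0.46 (adjusted p = 0.169 by edgeR). Its neighbour Igf2, the fetal growth factor gene expressed from the paternal copy, measured 92.5, 71.2, 106 and 105 CPM in the labelled Fra-2 libraries, against 69.4, 127, 137 and 199 CPM in the controls (log2 fold change -0.51, SE 0.266, adjusted p = 0.679 by edgeR). Here too control 1 was the lowest library and the other 3 controls the highest. Igf2r, the imprinted receptor that clears the Igf2 protein, averaged 449 ± 70.8 CPM in the labelled Fra-2 libraries and 403 ± 74.2 CPM in the controls, and did not pass.

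Meg3, the maternally expressed long noncoding RNA of the Dlk1 domain, had the highest coefficient of variation of the members in the labelled Fra-2 libraries and the second highest, after Peg10, in the controls. It measured 139, 224, 84.0 and 60.3 CPM in the labelled Fra-2 libraries, against 136, 207, 136 and 75.5 CPM in the controls. The ranges overlapped almost fully, with a log2 fold change of -0.13 (SE 0.465, adjusted p = 0.98 by edgeR) and an interval of the fold from 0.43 to 1.96. Its coefficient of variation was 57.4% in the labelled Fra-2 libraries and 38.8% in the controls, beside 14.5% (labelled Fra-2) and 43.8% (control) for Peg10 and 5.38% (labelled Fra-2) and 11.7% (control) for Grb10. The sign of the fold change turned when a single library was left out, to 0.03 (Fra-2 3 left out), 0.11 (Fra-2 4) or 0.14 (control 2).

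Dlk1 measured 8.33, 5.73, 5.17 and 5.33 CPM in the labelled Fra-2 libraries, against 5.67, 9.27, 6.73 and 9.39 CPM in the controls. The log2 fold change was -0.33 (SE 0.224, adjusted p = 0.78 by edgeR), and the groups overlapped, with Fra-2 1 above control 1 and control 3 and Fra-2 2 just above control 1. Of the 6 other tested genes of this domain, 0 passed in either direction. Rian, a noncoding RNA transcribed downstream of Meg3, measured 33.6, 31.6, 28.6 and 28.6 CPM in the labelled Fra-2 libraries, against 59.5, 42.8, 41.5 and 30.6 CPM in the controls (adjusted p = 0.265 by edgeR, unadjusted p = 0.00874).

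Among the paternally expressed members, Peg3, a zinc finger protein gene, was the one with a positive fold change at an unadjusted p under 0.05. It measured 1044, 1095, 1234 and 1267 CPM in the labelled Fra-2 libraries, against 864, 1061, 956 and 986 CPM in the controls. The groups overlapped only in that control 2 exceeded Fra-2 1. The log2 fold change was 0.26 (SE 0.102, unadjusted p = 0.0214, adjusted p = 0.416 by edgeR). Zim1, a neighbouring zinc finger gene of maternal expression, averaged 17.6 ± 3.15 CPM in the labelled Fra-2 libraries and 14.4 ± 3.55 CPM in the controls, and did not pass (adjusted p = 0.776 by edgeR).

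Ndn encodes necdin, a MAGE family protein that restrains proliferation in neurons. It measured 31.2, 24.0, 33.7 and 36.0 CPM in the labelled Fra-2 libraries, against 44.8, 37.4, 34.0 and 45.3 CPM in the controls. Fra-2 4 lay above control 3, and the log2 fold change was -0.37 (SE 0.146, unadjusted p = 0.0241, adjusted p = 0.43 by edgeR). Of the related MAGE genes, Maged1 averaged 1022.5 ± 84.1 CPM in the labelled Fra-2 libraries and 1017 ± 79.7 CPM in the controls, and Maged2 averaged 106 ± 9.16 CPM in the labelled Fra-2 libraries and 127 ± 12.1 CPM in the controls (adjusted p = 0.424 by edgeR). Of 11 tested relatives of members, 0 passed in either direction.

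Peg10, a gene derived from a retrotransposon and needed for the mouse placenta, measured 198, 163, 230 and 183 CPM in the labelled Fra-2 libraries, against 321, 171, 221 and 463 CPM in the controls. Control 1 and control 4 stood above the other 6 libraries, which spanned 163 to 230 CPM. The log2 fold change was -0.60 (SE 0.265, unadjusted p = 0.0468, adjusted p = 0.562 by edgeR), and without control 4 it was -0.29 (adjusted p = 0.645 by edgeR). Sgce, which shares a divergent promoter region with Peg10 and is also paternally expressed, measured 105, 103, 108 and 99.0 CPM in the labelled Fra-2 libraries, against 92.1, 96.2, 107 and 106 CPM in the controls.

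Mest, which encodes a membrane protein of the alpha/beta hydrolase fold, measured 90.2, 61.6, 89.5 and 89.5 CPM in the labelled Fra-2 libraries, against 38.3, 70.8, 75.6 and 90.9 CPM in the controls. Control 1 was the lowest library and control 4 the highest, so the control range enclosed the other group. The log2 fold change was 0.26 (SE 0.224, adjusted p = 0.86 by edgeR), and it was 0.07 without control 1. Mest overlaps Copg2 on the opposite strand, and the protocols name no step that keeps the strand, so reads in the shared stretch cannot be assigned. Plagl1, a zinc finger transcription factor known in mice to regulate several other imprinted genes, measured 541, 661, 699 and 785 CPM in the labelled Fra-2 libraries, against 742, 652, 686 and 552 CPM in the controls. Its log2 fold change was 0.03 (SE 0.124, adjusted p = 0.983 by edgeR), with an interval of the fold from 0.849 to 1.23, and the sign turned without Fra-2 4 or without control 4 (-0.05 and -0.04).

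**Figure D3:**
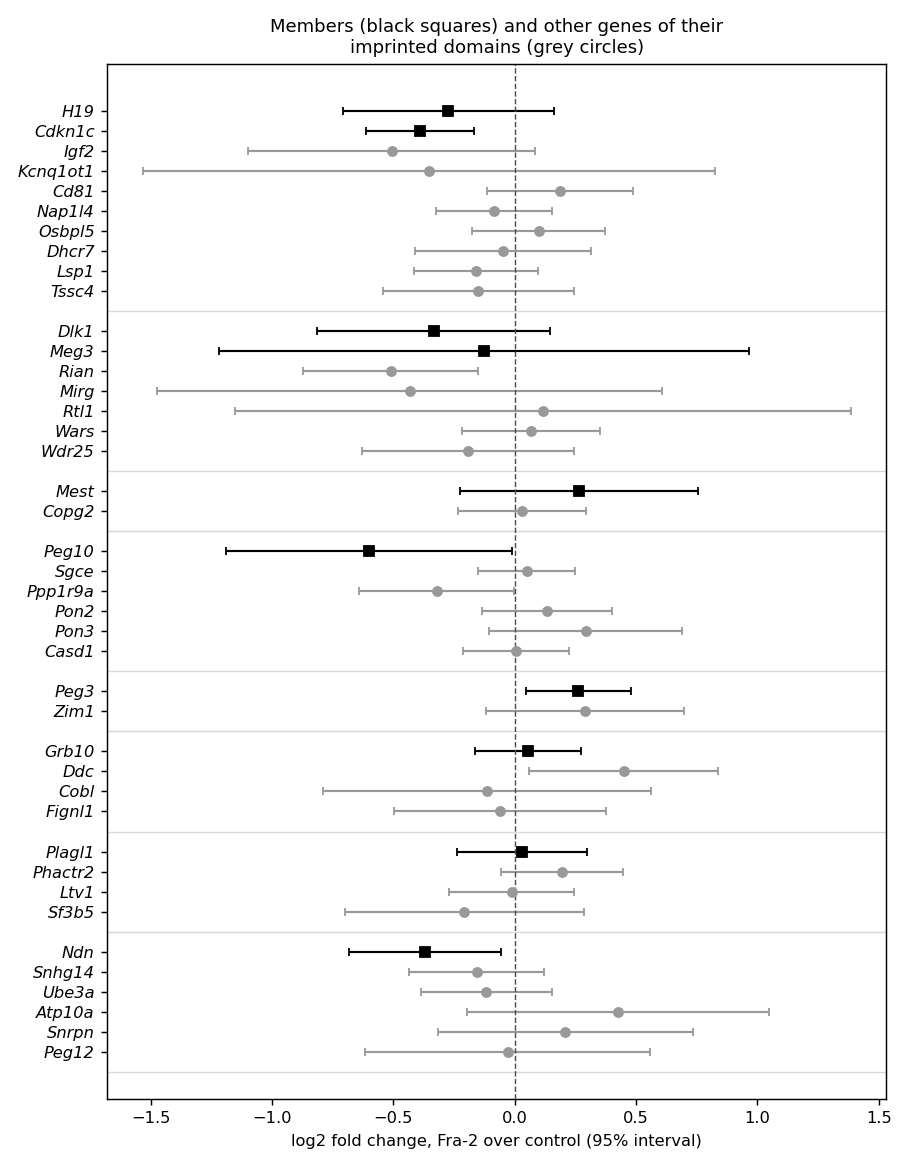
Log2 fold change, libraries labelled Fra-2 over controls, with its 95% interval from edgeR, for the 10 members (black squares) and the better expressed tested genes of their domains (grey circles), separated by domain. Cdkn1c, Peg3, Ndn and Peg10 are the members whose unadjusted interval excludes 0, and none passed after adjustment.

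Of 81 other imprinted genes and genes of the same domains found in the table, 65 were tested. Without adjustment, 7 of the 65 had p under 0.05 by edgeR, beside 8.71% of all tested genes. After adjustment, 2 of the 65 rose and 0 fell in the libraries labelled Fra-2, beside 0.72% and 0.298% of all tested genes. The other 63 did not pass, and the median log2 fold change of the 65 was -0.05. The risers were Htr2a, a serotonin receptor gene, and Dcn, which encodes the matrix proteoglycan decorin. In mice both are known as imprinted only in some tissues. Htr2a measured 6.08, 4.52, 5.32 and 9.38 CPM in the labelled Fra-2 libraries, against 3.19, 2.28, 2.40 and 2.14 CPM in the controls (log2 fold change 1.32, SE 0.261, adjusted p = 0.0266 by edgeR). Dcn measured 215, 176, 250 and 206 CPM in the labelled Fra-2 libraries, against 115, 140, 152 and 152 CPM in the controls (log2 fold change 0.60, SE 0.124, adjusted p = 0.0323 by edgeR). Each call was kept in 2 of the 8 fits without 1 library. Htr2a kept it without Fra-2 2 or without control 1 (adjusted p up to 0.101 in the others), and Dcn without Fra-2 2 or without control 4 (up to 0.148). The Htr2a call was also lost with limma-voom (adjusted p = 0.0534), and with the long noncoding share of counts as a covariate both were lost (adjusted p = 0.145 for Htr2a and 0.128 for Dcn, by edgeR). Dcn is also an adventitial fibroblast marker, and the part of that marker sum, given above, in its values was not tested.

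Calls were absent from each of the members' domains. Around H19 and Cdkn1c 0 of 11 tested genes passed, around Peg10 0 of 8, around Ndn 0 of 6, around Mest, Grb10 and Plagl1 0 of 3 each, and around Peg3 0 of 2. Fold changes below 0 were 9 of 11 around H19 and Cdkn1c, 3 of 6 around Dlk1 and Meg3 and 3 of 8 around Peg10. Around Ndn they were 3 of 6, and around Grb10 and Plagl1 2 of 3 each. Those above 0 were 3 of 3 around Mest and 2 of 2 around Peg3. Over all tested genes 8046 of 15422 lay below 0, and joint movement was not tested. Around Dlk1 and Meg3, Rtl1, a retrotransposon-derived gene, averaged 1.23 ± 0.813 CPM in the labelled Fra-2 libraries and 1.13 ± 0.914 CPM in the controls, and the noncoding RNA Mirg 1.31 ± 0.241 CPM in the labelled Fra-2 libraries and 1.78 ± 1.33 CPM in the controls. Around Ndn, the ubiquitin ligase gene Ube3a averaged 37.9 ± 4.25 CPM in the labelled Fra-2 libraries and 41.1 ± 4.91 CPM in the controls, and the noncoding Snhg14 21.1 ± 0.86 CPM in the labelled Fra-2 libraries and 23.5 ± 3.05 CPM in the controls. None of these 4 genes passed. The most abundant gene around H19 and Cdkn1c was Cd81, a tetraspanin gene, at 1417 ± 145 CPM in the labelled Fra-2 libraries and 1244 ± 276 CPM in the controls. Around Peg10 it was Ppp1r9a, at 135 ± 17.6 CPM in the labelled Fra-2 libraries and 169 ± 39.1 CPM in the controls, with an unadjusted p of 0.0479. Around Plagl1 it was Phactr2, at 205 ± 35.0 CPM in the labelled Fra-2 libraries and 179 ± 10.8 CPM in the controls. Copg2, beside Mest, averaged 41.4 ± 5.22 CPM in the labelled Fra-2 libraries and 40.6 ± 3.54 CPM in the controls. Ddc, the aromatic amino acid decarboxylase gene beside Grb10, did not overlap between groups (23.3 to 29.3 CPM in the labelled Fra-2 libraries and 12.2 to 23.2 CPM in the controls), as for 3.35% of tested genes in this direction, but did not pass (adjusted p = 0.458 by edgeR). Of 14 tested genes that act on imprints or DNA methylation, 0 passed in either direction. The most abundant of them, the de novo DNA methyltransferase gene Dnmt3a, averaged 455 ± 23.7 CPM in the labelled Fra-2 libraries and 481 ± 32.8 CPM in the controls.

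Within domains, 10 pairs of a member and a neighbour were compared over the 8 libraries on log2 CPM. The pairs were chosen after the values were seen, so correlations are given as descriptions with no p. The libraries of a pair share their depth and preparation. H19 and Igf2 had Pearson r = 0.77 and Spearman rho = 0.90, and r was 0.85 without control 1 and Fra-2 4, the libraries farthest from the median of H19. Mest and Copg2 had r = 0.73 and rho = 0.83, with r = 0.69 without control 1 and Fra-2 2. These 2 genes overlap on opposite strands, and the part of reads from the shared stretch in their correlation was not tested. Peg3 and Zim1 had r = 0.78 and rho = 0.67, with r = 0.66 without control 1 and Fra-2 4. The other 7 pairs had lower values. Pearson r was 0.49 for Plagl1 and Phactr2, 0.47 for Meg3 and Rian, 0.22 for Dlk1 and Meg3, 0.16 for Ndn and Snhg14, 0.12 for Cdkn1c and Kcnq1ot1, 0.06 for Peg10 and Sgce and -0.22 for Grb10 and Ddc. Several of these values rest on the 2 libraries farthest from the member's median. Without those 2, r was 0.76 for Peg10 and Sgce (control 4 and control 1) and -0.71 for Grb10 and Ddc (control 2 and control 1). It was 0.62 for Plagl1 and Phactr2, 0.40 for Dlk1 and Meg3 and 0.18 for Meg3 and Rian. For Cdkn1c and Kcnq1ot1 it was -0.0058, and for Ndn and Snhg14 -0.05.

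**Figure D4:**
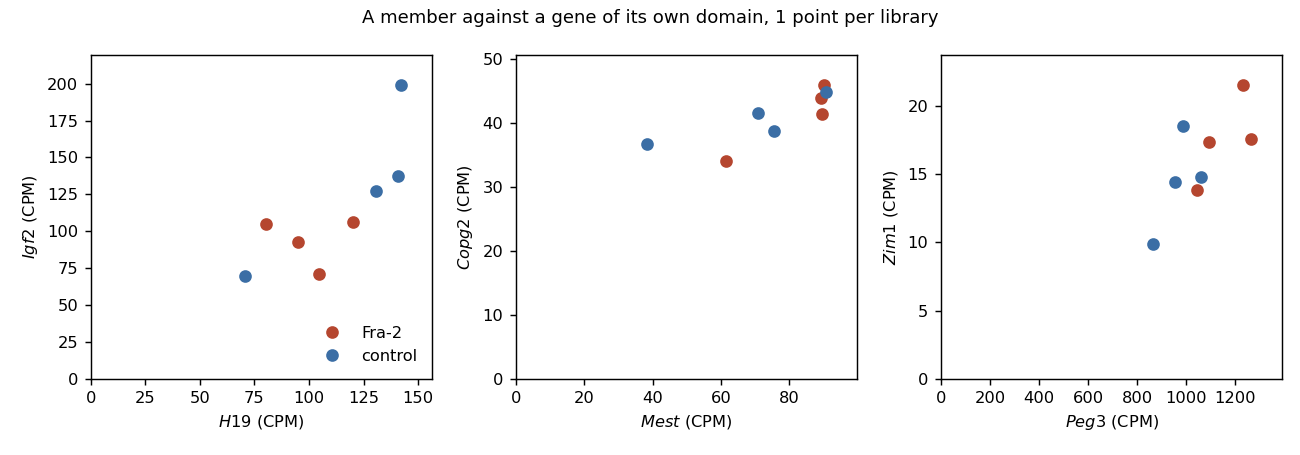
CPM of a member (horizontal) against a gene of its own domain (vertical) in each of the 8 libraries, with libraries labelled Fra-2 in red and controls in blue. Control 1, at 70.5 CPM for H19, 38.3 CPM for Mest and 864 CPM for Peg3, is the leftmost point in each panel.

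Meg3 was set beside imprinted noncoding RNAs of other chromosomes, also chosen after their values were seen. Kcnq1ot1, the long antisense RNA of the Cdkn1c domain, measured 67.3, 79.2, 36.9 and 21.8 CPM in the labelled Fra-2 libraries, against 83.7, 95.1, 54.0 and 29.1 CPM in the controls. Airn, the antisense RNA of the Igf2r domain, measured 13.9, 18.2, 11.1 and 8.24 CPM in the labelled Fra-2 libraries, against 22.7, 26.2, 14.4 and 9.87 CPM in the controls. Library 2 was highest and library 4 lowest for Meg3, Kcnq1ot1 and Airn in both groups. Meg3 and Kcnq1ot1 had r = 0.94 and rho = 0.81, with r = 0.85 without Fra-2 4 and control 4. Meg3 and Airn had r = 0.88 and rho = 0.79, with r = 0.73 without the same libraries. Other long noncoding genes, those in none of the gene lists, took 0.669%, 0.815%, 0.673% and 0.513% of counts in the labelled Fra-2 libraries, against 0.824%, 1.32%, 0.789% and 0.561% in the controls. Meg3 and this share had r = 0.83 and rho = 0.71, with r = 0.65 without Fra-2 4 and control 4. The part of that share in the Meg3 values was not tested.

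**Figure D5:**
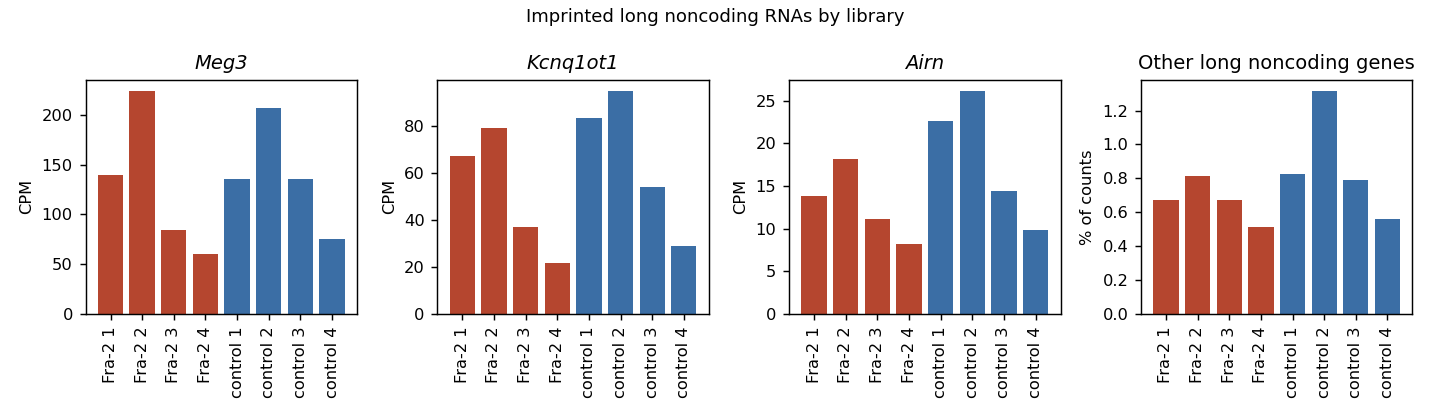
Meg3, Kcnq1ot1 and Airn (CPM) and the share of counts on long noncoding genes outside the gene lists (percent) in each library, with libraries labelled Fra-2 in red on the left and controls in blue. In all 4 panels library 2 is the highest and library 4 the lowest of its group.

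The highest and lowest libraries were not spread evenly. Control 4 was the highest of the 8 libraries for 6 members (H19, Dlk1, Mest, Grb10, Ndn and Peg10). Control 1 was the lowest for 3 (H19, Mest and Peg3), and Fra-2 2 was the lowest for 3 (Cdkn1c, Ndn and Peg10). Among 9480 genes, leaving out predicted genes and those with a mean under 5 CPM, the nearest to Grb10 in centred log2 CPM were Fndc1, Herpud1 and Exoc4, with a root mean square difference of 0.04 over 8 libraries, beside an SD of 0.12 for Grb10. Nearest to Cdkn1c were Map1b, Nt5c and Rpa2, with differences of 0.06, 0.09 and 0.10, beside an SD of 0.24 for Cdkn1c.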

How the data were processed

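A single table for the 8 libraries was used, in which the values deposited by the authors are raw counts per gene. Per the labels' protocols, mRNA was selected with beads from 50 ng of total RNA, its cDNA was amplified (NuGEN Ovation V2) and libraries were made with Nextera XT. Amplification adds spread between libraries, and no step named keeps the strand. The submitters' processing notes name GRCh38, a human build, while identifiers are mouse. The aligner and counter: not given in the sources used here. Symbols, positions and exon lengths (union of annotated exons) come from GENCODE M21 (GRCm38).

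Counts were analysed with edgeR 4.0.16 in R 4.3.3. The filterByExpr function (minimum count 10, minimum total 15) kept 15422 genes, and TMM scaling, robust dispersions and the quasi-likelihood F-test were used without covariates, with Benjamini-Hochberg adjustment over all tested genes at 0.05. Fold changes use a prior count of 2, intervals are 95%, and the SE follows from F (the size of log2 fold change over its root). The fit was also run on simulated counts, with set changes all larger than those of every member but Peg10. That run therefore does not show whether changes as small as the members' would be called. Libraries of a group differed by more than sampling noise (chi-square per gene 36.0 to 155), so all were kept. Members and lists were chosen with earlier results of these data known. Named were all members, Fosl2, and the genes past the threshold and the most abundant gene of each list of related genes. Some tested imprinted neighbours were named too, while others were not. Also named were the 3 genes nearest in pattern to the most abundant member and to the member with the smallest p. Any other gene named was chosen after its values were seen. Alternatives covered scaling, filtering, DESeq2 1.42.0, limma-voom (limma 3.58.1), replicate number and sex as covariates, prior counts and leaving out each library. Sex was inferred from the counts, by whether the X-inactivation RNA exceeded the sum of Y-linked genes in a library. The split of inferred sex between the groups is not given here. The share of counts on all long noncoding genes, listed ones such as Meg3 included, was added as a covariate after seeing the data.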

Additional observations from a re-analysis of the deposited data

Results flagged for a closer look

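H19 in control 1 (70.5 CPM) lay far below the other controls (131 to 142 CPM). Mest in Fra-2 2 (61.6 CPM) lay far below the other libraries labelled Fra-2 (89.5 to 90.2 CPM). Chance alone marks about 1 in 20 groups of 4, and the members and Fosl2 were examined in both groups.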

How the results depend on the processing

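Over 21 alternatives, 7 of the 10 members kept the sign of their fold change. No member was called (edgeR, adjusted p under 0.05; 4 had an unadjusted p under 0.05) except 1 by DESeq2 (Cdkn1c) and 1 with long noncoding share as a covariate (Peg10, log2 fold change -0.85, adjusted p = 0.0428). That covariate was the share on all long noncoding genes, Meg3 and H19 included, and not the share outside the gene lists given above. It turned the log2 fold change of Meg3, itself part of that share, to 0.34 and that of Grb10 to -0.02 (-0.017). Without each library in turn Meg3 ranged from -0.55 to 0.14, above 0 without Fra-2 3 (0.03), Fra-2 4 (0.11) or control 2 (0.14), and Plagl1 from -0.053 to 0.12, below 0 without Fra-2 4 (-0.05) or control 4 (-0.04). Of the other imprinted genes 2 were called (Dcn and Htr2a), 1 by limma-voom (Dcn), 0 with the noncoding covariate and 0 to 3 without each library in turn. Over all genes 157 were called, 369 by DESeq2, 85 with the noncoding covariate and 76 to 205 without each library. Fosl2 stayed uncalled with total-count scaling. The cause of these differences was not tested. Same-numbered libraries had correlations of 0.0018, 0.219, 0.0797 and 0.31 for numbers 1 to 4. The control that correlated best was control 2 for Fra-2 1 and Fra-2 2, and control 4 for Fra-2 3 and Fra-2 4. Replicate numbers may pair some libraries, but with only these controls ever the best match, the comparison cannot show it. The fit with the replicate block called 190 genes and 0 members, and the SE of Meg3 was 0.128 with it, against 0.465 in the main fit. The spread of 4 libraries per group limits what small changes can be called.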
